A study of Mus musculus with 16 samples.

Results

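The proteasome genes of the mouse left ventricle were taken from the deposited gene table by their symbols, as every row named Psma, Psmb, Psmc, Psmd, Psme or Psmf with a number. The rule gave 44 of the 55492 genes in the table and used no measured value. Of the 44 genes, 42 had a mean of at least 10 normalized counts over the 16 hearts and were tested. Psmb8, Psmb9, Psmb10, Psme1 and Psme2, which encode the subunits of the immunoproteasome and of its activator, are described apart from the other 39 genes.

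The proteasome is the protease that degrades ubiquitin-tagged proteins. Its 20S core is a stack of rings, with outer rings of alpha subunits that gate the entrance and inner rings of beta subunits, of which Psmb5, Psmb6 and Psmb7 encode the catalytic ones. The 19S cap unfolds the substrate with a ring of ATPases, the Psmc genes, and recognises and removes ubiquitin through base and lid subunits, most of the Psmd genes. Interferon-gamma is known to replace the catalytic subunits with Psmb8, Psmb9 and Psmb10 and to raise Psme1 and Psme2, which form the PA28 activator, so that peptides suited to MHC class I are made. In cardiomyocytes the proteasome takes part in the turnover of sarcomere proteins, and leukocytes hold much of the immunoproteasome of a tissue.

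RNA of the left ventricle was sequenced from 16 male C57BL/6 mice of 8 to 12 weeks, each library from its own mouse. PKM2fl/fl mice carry loxP sites around the exon of Pkm that is particular to the PKM2 isoform of pyruvate kinase, the last enzyme of glycolysis. PKM2-/- mice had lost that exon in every tissue through a CMV-driven Cre that was afterwards bred out, so that neither genotype carried Cre at the time of study. Each genotype had 2 untreated hearts (baseline), 3 hearts taken 3 days after sham surgery and 3 hearts taken 3 days after MI, in which the left anterior descending coronary artery was tied off for good, whereas sham surgery left the artery open. The libraries held 20623769 to 71855101 reads, and log values of any pair of hearts correlated with r between 0.8362 and 0.9851. Reads on Pkm as a whole cannot show the loss of a single exon, and its normalized counts ran from 7779 to 9444 in PKM2fl/fl sham hearts and from 11710 to 14242 in PKM2-/- sham hearts (limma adjusted p = 0.174).

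The start regions of 4 genes on which the results turn are given first. Psmd14 had the clearest rise, and Psme1 and Psme4 had the largest log2 falls, in PKM2fl/fl and PKM2-/- hearts respectively. Psmb9 shares its start region with a neighbour. Each window holds the 250 bases before and the 50 bases after the annotated start, from RefSeq on GRCm38.p6, the same assembly as mm10, written 5′ to 3′ along the gene. Capitals mark matches, on either strand, to CGGAAG (the core of ETS factor sites, other strand CTTCCG), to CCAAT (other strand ATTGG) and to the core of interferon-stimulated response elements, a pair of GAAA runs spaced by any pair of bases. Psmd14 at chr2:61711444-61711743 (forward strand) holds 1 ETS core and 3 CCAAT matches, of which a pair overlap on opposite strands. Psme4 at chr11:30771525-30771824 (forward strand) holds 1 ETS core, and Psme1 at chr14:55578244-55578543 (forward strand) holds 1 interferon-stimulated response element core. Psmb9 at chr17:34187281-34187580 (reverse strand) holds 1 CCAAT match, and 275 of its 300 bases are also the start window of Tap1 on the other strand.
Psmd14: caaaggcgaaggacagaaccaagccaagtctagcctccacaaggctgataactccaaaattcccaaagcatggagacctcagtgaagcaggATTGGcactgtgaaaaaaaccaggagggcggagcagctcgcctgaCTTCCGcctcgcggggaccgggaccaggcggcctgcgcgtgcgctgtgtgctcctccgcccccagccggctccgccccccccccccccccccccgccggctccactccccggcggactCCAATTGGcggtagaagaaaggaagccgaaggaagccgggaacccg
Psme4: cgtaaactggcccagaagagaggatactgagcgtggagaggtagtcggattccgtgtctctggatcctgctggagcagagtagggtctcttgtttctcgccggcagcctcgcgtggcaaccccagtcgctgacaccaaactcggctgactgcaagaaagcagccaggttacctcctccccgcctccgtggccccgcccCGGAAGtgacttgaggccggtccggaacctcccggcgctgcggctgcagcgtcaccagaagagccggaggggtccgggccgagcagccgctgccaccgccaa
Psme1: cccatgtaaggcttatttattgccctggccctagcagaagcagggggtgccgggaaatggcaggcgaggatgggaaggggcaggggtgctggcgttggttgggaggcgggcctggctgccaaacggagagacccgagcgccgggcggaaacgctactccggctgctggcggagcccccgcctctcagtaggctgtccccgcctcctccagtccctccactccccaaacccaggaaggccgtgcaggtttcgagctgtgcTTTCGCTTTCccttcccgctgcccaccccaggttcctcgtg
Psmb9: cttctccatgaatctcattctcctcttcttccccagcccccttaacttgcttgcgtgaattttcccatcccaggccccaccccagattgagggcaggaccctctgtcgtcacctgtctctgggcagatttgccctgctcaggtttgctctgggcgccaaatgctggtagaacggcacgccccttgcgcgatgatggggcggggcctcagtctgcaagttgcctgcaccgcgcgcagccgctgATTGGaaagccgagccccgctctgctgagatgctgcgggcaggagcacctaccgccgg

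Of the 44 genes, 37 matched the promoter table, with 40 windows in all, and Psma8, Psmb1, Psmb2, Psmb7, Psmc3, Psmd3 and Psmd7 did not match. CGGAAG or its complement lay in 21 of the 40 windows (52.5%), against 16.9% of all 32851 windows of the same length. The interferon element core lay in 4 of the 40 windows (10%), those of Psmb3, Psmd4, Psmd9 and Psme1, against 3.44% of all windows. A CCAAT match lay in 35% of the proteasome windows and in 37.4% of all windows. The core of antioxidant response elements, TGANNNNGC, lay in 57.5% of the proteasome windows against 41.3% of all, and the longer NRF1 site TGACTCAGC in 0 of 40 against 0.454% of all. The proteasome windows had a median G+C content of 57.3%, and all windows 52.7%. A match says only that the letters are present in the window.

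After MI, most of the proteasome genes that differed from sham in PKM2fl/fl hearts were lower. Psmd14 rose and 19 of the 42 tested genes fell, a total of 47.6%, when a gene was called at a Benjamini-Hochberg adjusted p under 0.05 from limma's test. Over all 20576 tested genes, 50.1% were called, 24.8% higher and 25.3% lower. None of the 42 genes also reached a 2-fold difference, which 12.4% of all genes did upward and 11.1% downward. The log2 fold change was below 0 for 35 of the 42 genes, whereas 49.8% of all genes were above 0. The median of the 42 was −0.26 and that of all genes −0.0025, and the single values ran from −0.93 (Psme1) to 0.64 (Psmd14). In a bulk sample, fewer cells of a type and less RNA per cell cannot be told apart.

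In PKM2-/- hearts, Psma5, Psmd5 and Psmd14 rose after MI and Psmc2, Psmc3, Psmc5, Psmd4, Psmd7, Psmd12, Psme1 and Psme4 fell. These 11 of 42 genes (26.2%) stood beside 56.8% of all genes, 28.7% higher and 28.1% lower. As in PKM2fl/fl hearts, 0 of the 42 reached a 2-fold difference, against 14.5% of all genes upward and 14.3% downward. The log2 fold change was above 0 for 17 of the 42 genes and for 50.5% of all genes, with medians of −0.05 and 0.01. All 8 genes that fell in PKM2-/- hearts also fell in PKM2fl/fl hearts, and Psmd14 rose in both. A further 11 genes fell in PKM2fl/fl hearts and were not called in PKM2-/- hearts (Psma6, Psma7, Psmb4, Psmb5, Psmb6, Psmb7, Psmb10, Psmc1, Psmd2, Psmd6 and Psme2), and 20 were called in neither.

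The direction of these changes depended on the scaling of the libraries. Reads on loci of ribosomal RNA took 15.9% to 27.8% of PKM2fl/fl sham libraries, 19.9% to 44.7% of PKM2fl/fl MI libraries, 28.7% to 46.1% of PKM2-/- sham libraries and 16% to 34.4% of PKM2-/- MI libraries. Under scaling by library totals (total reads) rather than by the authors' size factors, the median of all genes moved to −0.18 in PKM2fl/fl and to 0.52 in PKM2-/- hearts, and the counts became 0 higher and 4 lower in PKM2fl/fl and 9 higher and 0 lower in PKM2-/- hearts. These were 9.52% and 21.4% of the 42 genes, beside 29.2% and 44.3% of all genes called under the same scaling. When they were scaled to the reads outside the ribosomal RNA loci, the medians of all genes were 0.12 and 0.36, and the counts 2 higher and 7 lower in PKM2fl/fl and 17 higher and 1 lower in PKM2-/- hearts, or 21.4% and 42.9% of the 42 genes beside 45% and 57.4% of all genes. The sign of the log2 fold change turned for 23 of the 42 genes in PKM2-/- hearts by total reads and for 18 by reads outside the ribosomal RNA loci, and for 3 and 7 in PKM2fl/fl hearts. Relative to the median gene, the median proteasome gene stood at −0.26 in PKM2fl/fl hearts under all 4 scalings tried and between −0.06 and −0.05 in PKM2-/- hearts. Directions are given below with the authors' size factors.

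**Figure D1:**
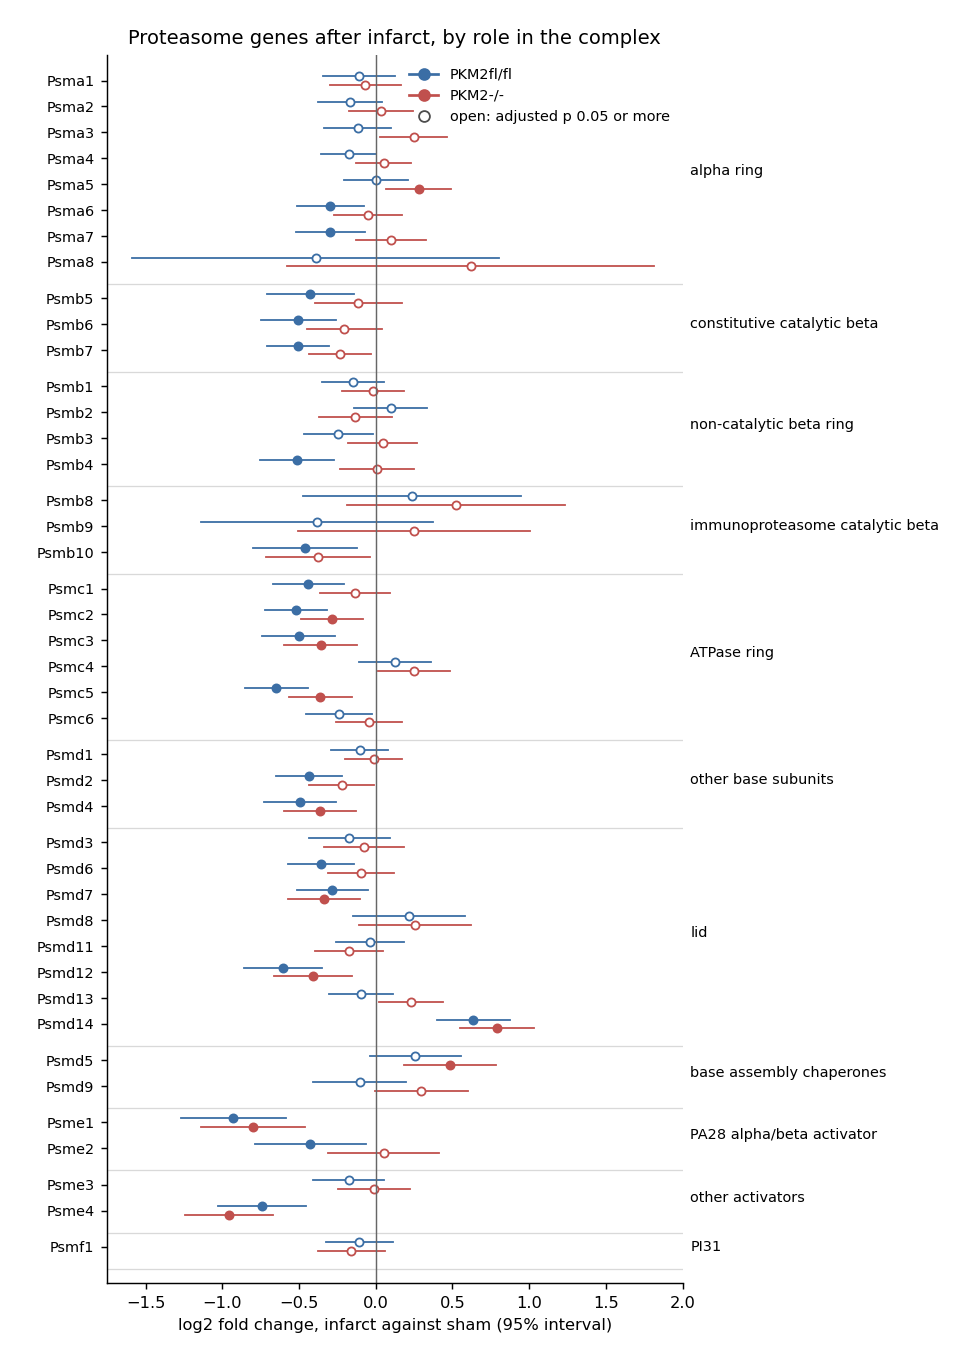
Log2 fold change of MI against sham for each of the 42 tested genes (x axis) with its 95% interval, in PKM2fl/fl (blue) and PKM2-/- hearts (red), grouped by role, with filled points for an adjusted p under 0.05. With the authors' size factors 35 genes lay below 0 in PKM2fl/fl hearts and 25 in PKM2-/- hearts, where scaling to total reads leaves 0 genes called lower, and Psmd14 lay to the right in both.

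The clearest rise was that of Psmd14, the lid subunit that cuts ubiquitin chains off the substrate. In PKM2fl/fl mice it had 1011, 1052 and 992 normalized counts in sham hearts and 1363, 1490 and 1958 after MI. In PKM2-/- mice it had 1167, 1187 and 1085 normalized counts after sham surgery and 2158, 1882 and 1927 after MI. Every infarcted heart was above every sham and baseline heart of either genotype. The log2 fold change was 0.64 in PKM2fl/fl (standard error 0.11, limma adjusted p = 0.000257) and 0.79 in PKM2-/- hearts (standard error 0.11, limma adjusted p = 2.65e-05). For each gene, 3 hearts against 3 cannot give an exact permutation p below 0.1, so the calls rest on the spread that limma shares across genes and groups. Scaled to total reads, the PKM2fl/fl difference was 0.46 with a limma adjusted p of 0.260.

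Among the other lid subunits, Psmd6, Psmd7 and Psmd12 fell in PKM2fl/fl and Psmd7 and Psmd12 in PKM2-/- hearts. Psmd12, a scaffold subunit of the lid, had 1542, 1747 and 1468 normalized counts in PKM2fl/fl sham hearts and 1074, 1155 and 902 after MI, with no overlap. In PKM2-/- hearts it had 1513, 1497 and 1538 normalized counts after sham surgery and 1368, 980 and 1105 after MI, again with no overlap. Its log2 fold change was −0.61 in PKM2fl/fl (standard error 0.12, limma adjusted p = 0.000613) and −0.41 in PKM2-/- hearts (standard error 0.12, limma adjusted p = 0.00827), and without PKM2-/- MI replicate 2 the latter was −0.30 with a limma adjusted p of 0.0531. Psmd7, the partner of Psmd14 in its deubiquitinase dimer, had log2 fold changes of −0.28 (limma adjusted p = 0.0405) and −0.34 (limma adjusted p = 0.0152), opposite in sign to those of Psmd14 with the authors' size factors, whereas in PKM2-/- hearts Psmd7 turned to 0.18 by total reads and to 0.01 by reads outside the ribosomal RNA loci. Psmd12 in PKM2-/- hearts turned to 0.10 by total reads (limma adjusted p = 0.808). The PKM2fl/fl call of Psmd7 was lost without sham replicate 1 (adjusted p = 0.0926, limma), sham replicate 2 (0.127), MI replicate 2 (0.0957) or MI replicate 3 (0.107). The PKM2-/- call of Psmd7 was lost without sham replicate 3 (0.0817) or MI replicate 2 (0.0556). Total reads and reads outside the ribosomal RNA loci each ended the PKM2fl/fl calls of Psmd6 and Psmd7. Psmd3, Psmd8, Psmd11 and Psmd13 were not called in either genotype, with log2 fold changes of −0.17 to 0.21 in PKM2fl/fl hearts. In PKM2-/- hearts, Psmd8 and Psmd13 were called without sham replicate 3 (log2 fold changes of 0.42 and 0.27, limma adjusted p = 0.0491 and 0.0496), Psmd13 without MI replicate 2 (0.31, limma adjusted p = 0.0211) and Psmd11 without MI replicate 1 (−0.28, limma adjusted p = 0.0310).

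In the ATPase ring, 4 of 6 genes fell in PKM2fl/fl and 3 of 6 in PKM2-/- hearts, at median log2 fold changes of −0.47 and −0.21, while total-read scaling left only Psmc5 of them called in PKM2fl/fl and ended all 3 calls in PKM2-/- hearts, where Psmc5 turned to 0.15 and Psmc4 was called higher. With the authors' size factors, 25.3% of all genes fell in PKM2fl/fl and 28.1% in PKM2-/- hearts. Psmc5, an ATPase of the base, showed the smallest p of all 42 genes in PKM2fl/fl hearts. It had 1098, 1098 and 1092 normalized counts in PKM2fl/fl sham hearts and 784, 713 and 612 after MI. The corresponding PKM2-/- values were 1071, 1087 and 1033 after sham surgery and 896, 798 and 793 after MI. The infarcted hearts were below all sham and baseline hearts in each genotype. The log2 fold change was −0.65 in PKM2fl/fl (standard error 0.10, limma adjusted p = 5.39e-05) and −0.36 in PKM2-/- hearts (standard error 0.10, limma adjusted p = 0.00454). Psmc1, Psmc2 and Psmc3 fell by 0.44, 0.52 and 0.50 on the log2 scale in PKM2fl/fl hearts. In PKM2-/- hearts Psmc2 fell by 0.28 and Psmc3 by 0.36, and the Psmc2 call was lost without MI replicate 2 (limma adjusted p = 0.0705) or MI replicate 3 (limma adjusted p = 0.0838). By total reads they turned to 0.23 and 0.16, whereas Psmc1 was called without MI replicate 1 (−0.25, limma adjusted p = 0.0449). Psmc4 had log2 fold changes of 0.13 and 0.25 and was not called in either genotype, and without PKM2-/- sham replicate 3 it was called higher in PKM2-/- hearts (0.35, limma adjusted p = 0.0143).

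Of the other base subunits, the ubiquitin receptor Psmd4 fell in both genotypes and the large scaffold subunit Psmd2 fell in PKM2fl/fl hearts. Psmd4 had 1302, 1432 and 1208 normalized counts in PKM2fl/fl sham hearts and 1037, 974 and 797 after MI. In PKM2-/- mice its values were 1188, 1247 and 1325 after sham surgery and 1084, 889 and 956 after MI, so that sham and infarcted hearts did not overlap in either genotype. On the log2 scale the fold change was −0.49 in PKM2fl/fl (standard error 0.11, limma adjusted p = 0.00167) and −0.36 in PKM2-/- hearts (standard error 0.11, limma adjusted p = 0.0109), the latter lost without MI replicate 2 (−0.30, limma adjusted p = 0.0560). Psmd2 fell by 0.43 on the log2 scale in PKM2fl/fl hearts (limma adjusted p = 0.00213) and had −0.22 in PKM2-/- hearts (limma adjusted p = 0.0709), where it was called without sham replicate 3 (−0.28, limma adjusted p = 0.0453) or MI replicate 1 (−0.30, limma adjusted p = 0.0255). In PKM2fl/fl hearts, total reads ended the calls of Psmd4 (limma adjusted p = 0.0825) and Psmd2, and reads outside the ribosomal RNA loci ended that of Psmd2. The chaperone Psmd5, which helps to assemble the base and is not part of the finished cap, rose in PKM2-/- hearts. It had 416, 416 and 410 normalized counts in PKM2fl/fl sham hearts and 498, 415 and 590 after MI, which overlapped. PKM2-/- sham hearts had 317, 445 and 379 and infarcted hearts 541, 479 and 566, which did not overlap. MI against sham gave a log2 fold change of 0.26 in PKM2fl/fl (standard error 0.14, limma adjusted p = 0.137) and 0.48 in PKM2-/- hearts (standard error 0.14, limma adjusted p = 0.00794), and without PKM2fl/fl MI replicate 2 it was 0.39 with a limma adjusted p of 0.0346. Psmd9, another base chaperone, was not called in either genotype (−0.10 and 0.30), and was called in PKM2-/- hearts without sham replicate 2 (0.41, limma adjusted p = 0.0325) or MI replicate 2 (0.39, limma adjusted p = 0.0485).

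All 3 constitutive catalytic genes of the core fell in PKM2fl/fl hearts, and 0 of 3 were called in PKM2-/- hearts, with medians of −0.50 and −0.20, and by total reads none was called in PKM2fl/fl hearts and the PKM2-/- values turned to 0.28 (Psmb7), 0.31 (Psmb6) and 0.40 (Psmb5). With the authors' size factors, 25.3% of all genes fell in PKM2fl/fl and 28.1% in PKM2-/- hearts. Psmb7, which encodes the trypsin-like subunit, had 3024, 3205 and 2922 normalized counts in PKM2fl/fl sham hearts and 2215, 2307 and 1939 after MI. PKM2-/- mice had 2674, 2722 and 2516 after sham surgery and 2554, 2118 and 2096 after MI, where 1 infarcted heart lay within the sham range. Its log2 fold change was −0.50 in PKM2fl/fl (standard error 0.10, limma adjusted p = 0.000432) and −0.23 in PKM2-/- hearts (standard error 0.10, limma adjusted p = 0.0504). Without PKM2-/- MI replicate 1, the high heart, the latter was −0.32 with a limma adjusted p of 0.00953.

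Psmb6, which encodes the caspase-like subunit, had 1292, 1485 and 1329 normalized counts in PKM2fl/fl sham hearts and 1084, 953 and 867 after MI. Its values in PKM2-/- mice were 1296, 1074 and 1298 after sham surgery and 1219, 1005 and 962 after MI, which overlapped. Its log2 fold change was −0.50 (standard error 0.11, limma adjusted p = 0.00193) and −0.20 (standard error 0.11, limma adjusted p = 0.143), and without PKM2-/- MI replicate 1 the latter was called (−0.31, limma adjusted p = 0.0380). Psmb5, which encodes the chymotrypsin-like subunit, had 795, 974 and 723 normalized counts in PKM2fl/fl sham hearts and 662, 675 and 516 after MI. PKM2-/- sham hearts had 802, 789 and 894, and infarcted hearts 818, 704 and 775, which overlapped. Its log2 fold change was −0.43 (standard error 0.13, limma adjusted p = 0.0147) and −0.11 (standard error 0.13, limma adjusted p = 0.487). The PKM2fl/fl call for Psmb5 was lost without sham replicate 2 (−0.31, limma adjusted p = 0.0859) or MI replicate 3 (−0.30, limma adjusted p = 0.0732).

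The non-catalytic beta genes differed among themselves. Psmb4, a structural subunit of the beta ring, had 1748, 1878 and 1647 normalized counts in PKM2fl/fl sham hearts and 1323, 1232 and 1141 after MI. In PKM2-/- mice it had 1461, 1484 and 1492 after sham surgery and 1745, 1399 and 1347 after MI, so that the infarcted hearts lay on both sides of the sham hearts. On the log2 scale the fold change was −0.51 in PKM2fl/fl (standard error 0.11, limma adjusted p = 0.00153) and 0.01 in PKM2-/- hearts (standard error 0.11, limma adjusted p = 0.957). The PKM2fl/fl call for Psmb4 was lost by total reads (limma adjusted p = 0.0778) and by reads outside the ribosomal RNA loci. Psmb2 had 1287, 1288 and 1387 normalized counts in PKM2fl/fl sham hearts and 1448, 1322 and 1472 after MI, and 1291, 1143 and 1635 against 1298, 1174 and 1199 in PKM2-/- hearts. Its groups overlapped in both genotypes, and its log2 fold changes of 0.10 and −0.13 were not called (limma adjusted p = 0.491 and 0.327). Psmb1 and Psmb3 were not called either, with −0.15 and −0.24 in PKM2fl/fl hearts and −0.02 and 0.05 in PKM2-/- hearts.

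In the alpha ring, Psma6 and Psma7 fell in PKM2fl/fl hearts and Psma5 rose in PKM2-/- hearts, 2 of 8 and 1 of 8 genes. Over all genes, 25.3% fell in PKM2fl/fl and 28.7% rose in PKM2-/- hearts. Psma6 had 1525, 1627 and 1449 normalized counts in PKM2fl/fl sham hearts and 1217, 1285 and 1244 after MI. The PKM2-/- values were 1375, 1461 and 1720 after sham surgery and 1644, 1295 and 1461 after MI, which overlapped. MI against sham gave a log2 fold change of −0.30 (standard error 0.10, limma adjusted p = 0.0264) and −0.05 (standard error 0.10, limma adjusted p = 0.702). Leaving out PKM2fl/fl sham replicate 1 (adjusted p = 0.0587, limma), sham replicate 2 (0.0976) or MI replicate 1 (0.0663) ended the Psma6 call. Psma7 fell by 0.29 on the log2 scale (limma adjusted p = 0.0307), a call that was lost without PKM2fl/fl sham replicate 1 (0.0650), sham replicate 2 (0.0966), MI replicate 2 (0.0622) or MI replicate 3 (0.0953). Total reads and reads outside the ribosomal RNA loci each ended the PKM2fl/fl calls of Psma6 and Psma7. Psma3 was not called in PKM2-/- hearts (0.25, limma adjusted p = 0.0512), and was called there without MI replicate 2 (0.32, limma adjusted p = 0.0257). Psma1, Psma2 and Psma4 were not called, with −0.18 to −0.11 in PKM2fl/fl hearts and −0.07 to 0.05 in PKM2-/- hearts.

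Psma5 had 670, 697 and 625 normalized counts in PKM2fl/fl sham hearts and 651, 625 and 722 after MI, which overlapped. In PKM2-/- mice it had 574, 676 and 672 after sham surgery and 778, 780 and 769 after MI, above every other heart of either genotype. On the log2 scale the fold change was 0.00 (standard error 0.10, limma adjusted p = 0.981) and 0.28 (standard error 0.10, limma adjusted p = 0.0245). The PKM2-/- call was lost without sham replicate 1 (0.20, limma adjusted p = 0.121) or any of MI replicates 1, 2 and 3 (0.28, 0.28 and 0.29, limma adjusted p = 0.0508, 0.0594 and 0.0515).

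Psma8, the alpha subunit of the testis proteasome, had 6 to 65 reads per heart and varied most. Its normalized counts in PKM2fl/fl hearts were 11 and 22.6 at baseline, 21.1, 14.4 and 19.6 after sham surgery and 18.5, 23.6 and 5.49 after MI. PKM2-/- hearts had 42 and 11, then 19.3, 23.5 and 28, and then 52.7, 19.1 and 47.6. The groups overlapped in every comparison and none was called. Psmb11, the catalytic subunit of the thymus, had 0 to 2 reads per heart, and Psmd10, a base chaperone, had 0 to 4 reads, so neither was tested.

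The activators outside the immunoproteasome differed from each other. Psme4, which encodes PA200, an activator known for acetylated histones and DNA repair, had 10177, 10552 and 11506 normalized counts in PKM2fl/fl sham hearts and 6380, 7291 and 5696 after MI. In PKM2-/- mice its values were 8469, 11956 and 10602 after sham surgery and 5927, 4991 and 4957 after MI. Infarcted hearts were below all sham and baseline hearts. MI against sham gave a log2 fold change of −0.74 in PKM2fl/fl (standard error 0.13, limma adjusted p = 0.000319) and −0.96 in PKM2-/- hearts (standard error 0.13, limma adjusted p = 2.36e-05), the lowest of the 42 genes in PKM2-/- hearts. Scaled to total reads, the PKM2-/- value was −0.44 with a limma adjusted p of 0.271. Its exons overlap those of a long noncoding gene on the other strand by 135 bases in GENCODE M39 on GRCm39.

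Psme3, which encodes the nuclear activator PA28 gamma, had 922, 983 and 983 normalized counts in PKM2fl/fl sham hearts and 974, 811 and 781 after MI. Its counts in PKM2-/- mice were 960, 1030 and 1133 after sham surgery and 1146, 970 and 984 after MI. All of these groups overlapped, with log2 fold changes of −0.18 and −0.01 that were not called (limma adjusted p = 0.192 and 0.937). Psmf1, which encodes the proteasome inhibitor PI31, had 402, 380 and 437 normalized counts against 376, 371 and 385 after MI in PKM2fl/fl hearts, and 370, 466 and 399 against 387, 362 and 352 in PKM2-/- hearts. These too overlapped and were not called (−0.11 and −0.16, limma adjusted p = 0.412 and 0.196).

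**Figure D2:**
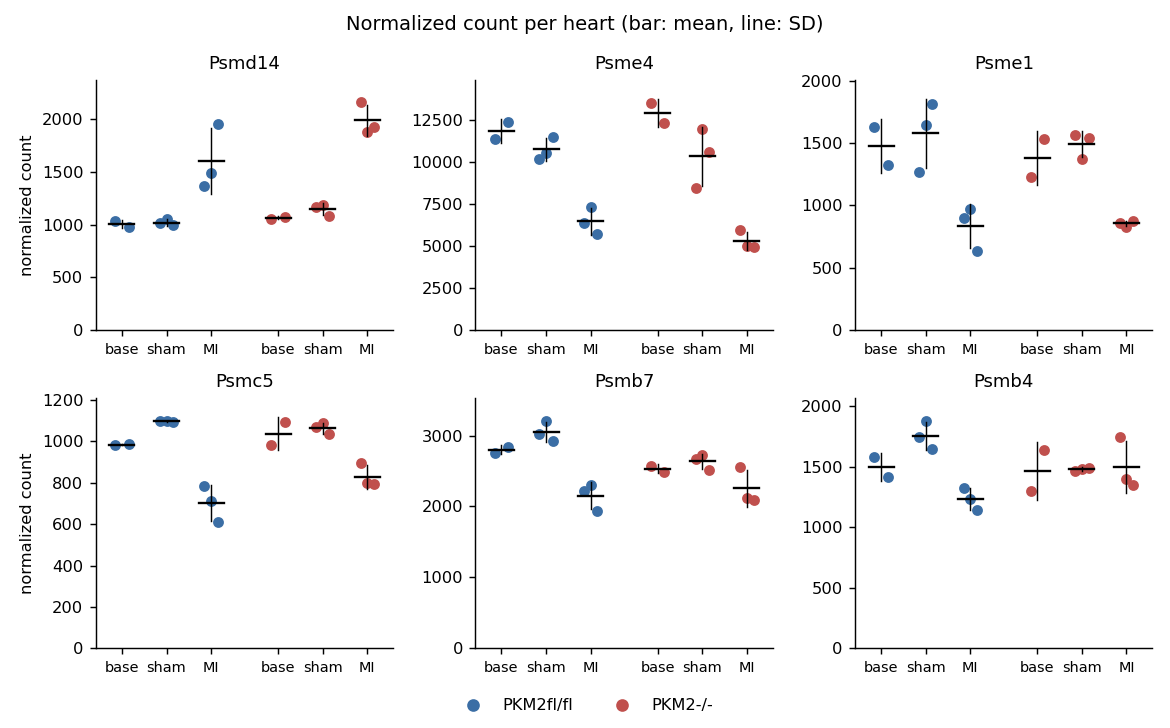
Normalized counts (y axis) of Psmd14, Psme4, Psme1, Psmc5, Psmb7 and Psmb4 in each heart (points) with the mean and SD, at baseline, after sham surgery and after MI in PKM2fl/fl (blue) and PKM2-/- mice (red), scaled with the authors' size factors. Psmd14 lay at 1363 to 2158 in infarcted hearts and at 978 to 1187 in all others, whereas Psmb4 separated sham from infarcted hearts in PKM2fl/fl mice and not in PKM2-/- mice.

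Of the 5 immunoproteasome genes, 3 fell after MI in PKM2fl/fl hearts (Psmb10, Psme1 and Psme2) and 1 in PKM2-/- hearts (Psme1), with medians of −0.43 and 0.05. None rose in either genotype with the authors' size factors, whereas scaling to total reads called Psmb8 higher in PKM2-/- hearts (1.03, limma adjusted p = 0.0179). Among the other 37 tested genes, 1 rose and 16 fell in PKM2fl/fl and 3 rose and 7 fell in PKM2-/- hearts, with medians of −0.24 and −0.05. Over all genes, 24.8% rose and 25.3% fell in PKM2fl/fl, and 28.7% rose and 28.1% fell in PKM2-/- hearts. Psme1, the alpha subunit of PA28, had 1270, 1648 and 1812 normalized counts in PKM2fl/fl sham hearts and 895, 971 and 630 after MI. The PKM2-/- values were 1564, 1370 and 1536 after sham surgery and 859, 829 and 874 after MI. Every infarcted heart was below every other heart. On the log2 scale the fold change was −0.93 in PKM2fl/fl (standard error 0.16, limma adjusted p = 0.000209) and −0.80 in PKM2-/- hearts (standard error 0.16, limma adjusted p = 0.000563), and the PKM2-/- value was −0.29 (limma adjusted p = 0.459) when scaled to total reads. Psme1 overlaps exons of Emc9 on the other strand by up to 1204 bases in GENCODE M39, and the library kit does not mark strand. Reads there could not be assigned to either gene if the gene models used for counting hold this overlap, which was not checked.

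Psme2, the beta subunit of PA28, lies next to Psme1 on chromosome 14 (55587440 to 55591101, with Psme1 at 55578494 to 55581527, mm10). It had 514, 552 and 533 normalized counts in PKM2fl/fl sham hearts and 318, 499 and 391 after MI, with no overlap. PKM2-/- sham hearts had 609, 385 and 475 and infarcted hearts 472, 468 and 561, which overlapped. The log2 fold changes were −0.43 (standard error 0.17, limma adjusted p = 0.0479) and 0.05 (standard error 0.17, limma adjusted p = 0.818). The PKM2fl/fl call was lost in 12 of 15 alternatives, among them DESeq2 (adjusted p = 0.0663), edgeR (adjusted p = 0.0553) and the removal of any PKM2fl/fl sham heart or of MI replicate 1 (−0.27, limma adjusted p = 0.216) or 3. A second locus matches 82.4% of the Psme2 transcript at 99.4% identity, so its reads may be split between copies.

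Psmb10, whose product replaces that of Psmb7 in the immunoproteasome, had 573, 480 and 640 normalized counts in PKM2fl/fl sham hearts and 481, 432 and 326 after MI, which overlapped. Its values in PKM2-/- mice were 664, 499 and 581 after sham surgery and 435, 426 and 476 after MI, which did not overlap. MI against sham gave a log2 fold change of −0.46 (standard error 0.16, limma adjusted p = 0.0246) and −0.38 (standard error 0.16, limma adjusted p = 0.0551), so the call and the separation of the hearts went to different genotypes. Without PKM2fl/fl sham replicate 1, sham replicate 3 or MI replicate 3 the first was −0.44, −0.36 and −0.30 (limma adjusted p = 0.0653, 0.107 and 0.127). Without PKM2-/- sham replicate 2 the second was −0.48 (limma adjusted p = 0.0296). Scaling to total reads or to reads outside the ribosomal RNA loci also ended the PKM2fl/fl call of Psmb10.

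Psmb8 and Psmb9 lie on either side of the peptide transporter gene Tap1 within the MHC on chromosome 17 (Psmb9 at 34182030 to 34187330, Tap1 at 34187556 to 34197225 and Psmb8 at 34198195 to 34201454, mm10). Psmb8 had 278 and 157 normalized counts in PKM2fl/fl hearts at baseline, 258, 263 and 413 after sham surgery and 348, 427 and 311 after MI. In PKM2-/- mice its values were 169 and 132 at baseline, 582, 263 and 181 after sham surgery and 414, 392 and 508 after MI. Sham and infarcted hearts overlapped in each genotype, and neither difference was called (0.24 with a standard error of 0.33 and limma adjusted p = 0.580, and 0.52 with a standard error of 0.33 and limma adjusted p = 0.196). Without PKM2-/- sham replicate 1, the heart with 582, the PKM2-/- difference was 0.99 with a limma adjusted p of 0.00631.

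Psmb9 had 201 and 105 normalized counts in PKM2fl/fl hearts at baseline, 159, 199 and 238 after sham surgery and 159, 184 and 115 after MI. Its counts in PKM2-/- mice were 111 and 82.5 at baseline, 268, 84.9 and 115 after sham surgery and 151, 142 and 209 after MI. Sham and infarcted hearts overlapped in each genotype, with log2 fold changes of −0.38 (standard error 0.36, limma adjusted p = 0.392) and 0.25 (standard error 0.36, limma adjusted p = 0.568). The exons of Psmb9 and Tap1 overlap on opposite strands by up to 515 bases in GENCODE M39, whereas their mm10 RefSeq positions given above do not overlap. The gene models used for counting are not given in the sources used here. Whether some of their reads cannot be told apart is therefore not known.

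PKM2-/- sham replicate 1 was the highest of the 16 hearts in Psmb8, Psmb9 and Psmb10 and also in Tap1 and Nlrc5, the transactivator of MHC class I genes. Its normalized counts were 852 for Tap1 and 1752 for Nlrc5. The other PKM2-/- sham hearts had 349 and 233 for Tap1 and 584 and 595 for Nlrc5. As a description over the 16 hearts, with the group means taken out, Psmb8 followed Tap1 with r = 0.94 and Nlrc5 with r = 0.87, and Psmb9 had 0.82 and 0.85. For Psmb10 the values were 0.63 and 0.80, for Psme1 0.36 and 0.45, and for Psme2 0.52 and 0.53. The genes were read from the same libraries, and Psmb9 shares exon sequence with Tap1 in GENCODE M39 but not in the mm10 RefSeq positions. Ifng, which encodes interferon-gamma, was listed at 0 in all 16 hearts.

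**Figure D3:**
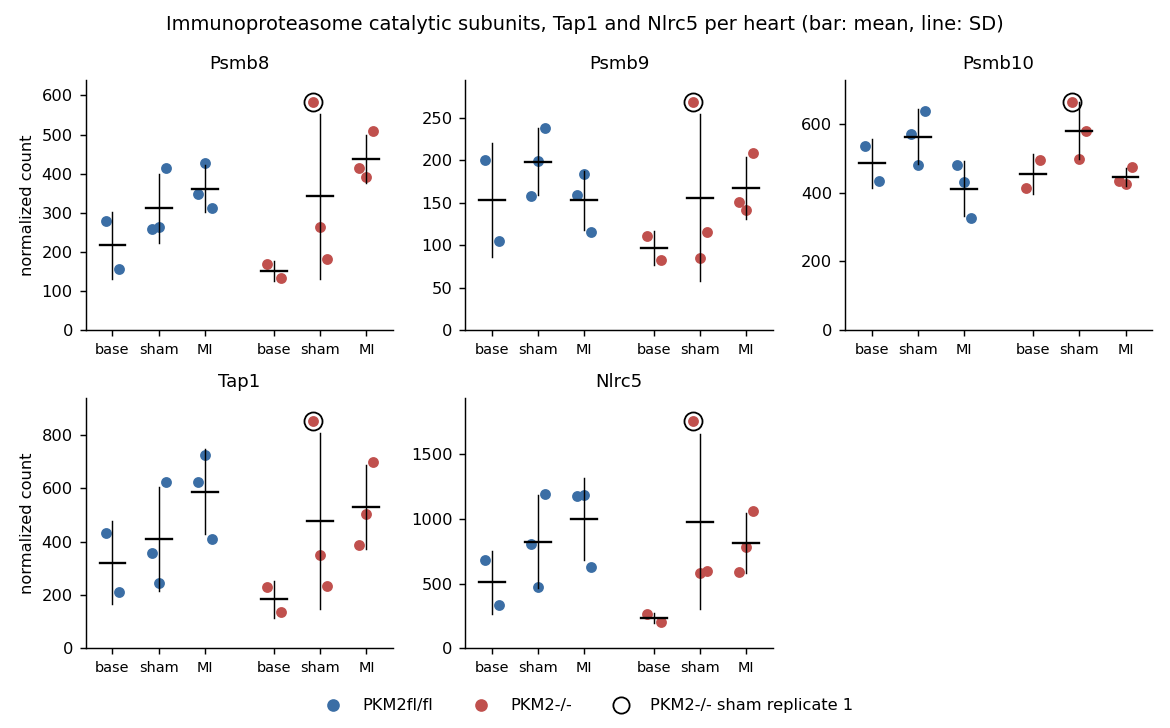
Normalized counts (y axis) of Psmb8, Psmb9, Psmb10, Tap1 and Nlrc5 in each heart (points) with the mean and SD, at baseline, after sham surgery and after MI in PKM2fl/fl (blue) and PKM2-/- mice (red). The ringed point, PKM2-/- sham replicate 1, is the highest of the 16 hearts in all 5 panels.

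Psmb8 and Psmb9 varied more from heart to heart than the other members except Psma8. The SD within groups on the log2 scale was 0.48 for Psmb8 and 0.51 for Psmb9, with Psma8 at 0.76, and its median was 0.13 over the 42 genes and 0.25 over all tested genes. Outside the immunoproteasome and Psma8 it ran from 0.077 to 0.24, a range that also held Psmb10 (0.21), Psme1 (0.22) and Psme2 (0.23). The ratio of an immunoproteasome catalytic subunit to the constitutive one it replaces does not depend on the scaling of the library and is given as a description, on the log2 scale relative to the mean of PKM2fl/fl sham hearts.

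For Psmb8 over Psmb5, PKM2fl/fl hearts had −0.10 and −0.79 at baseline, −0.18, −0.45 and 0.63 after sham surgery and 0.51, 0.78 and 0.71 after MI. PKM2-/- hearts had −0.56 and −1.22 at baseline, 0.98, −0.15 and −0.86 after sham surgery and 0.46, 0.60 and 0.83 after MI. Infarcted hearts of both genotypes averaged 0.67 ± 0.14 and 0.63 ± 0.19 (SD, n = 3), while sham hearts averaged 0.00 ± 0.56 and −0.01 ± 0.93 (SD, n = 3), and 1 sham heart of each genotype reached or passed the infarcted range. Up to 52.85% of the Psmb5 transcript matches other places in the genome, so the ratio of Psmb8 to Psmb5 is uncertain to that extent. Psmb9 over Psmb6 averaged 0.12 ± 0.28 in PKM2fl/fl and 0.12 ± 0.43 in PKM2-/- infarcted hearts, within the spread of the sham hearts (0.00 ± 0.29 and −0.34 ± 0.76). Psmb10 over Psmb7 averaged 0.04 ± 0.19 and 0.11 ± 0.21 after MI, again within the spread of the sham hearts (0.00 ± 0.28 and 0.25 ± 0.23).

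**Figure D4:**
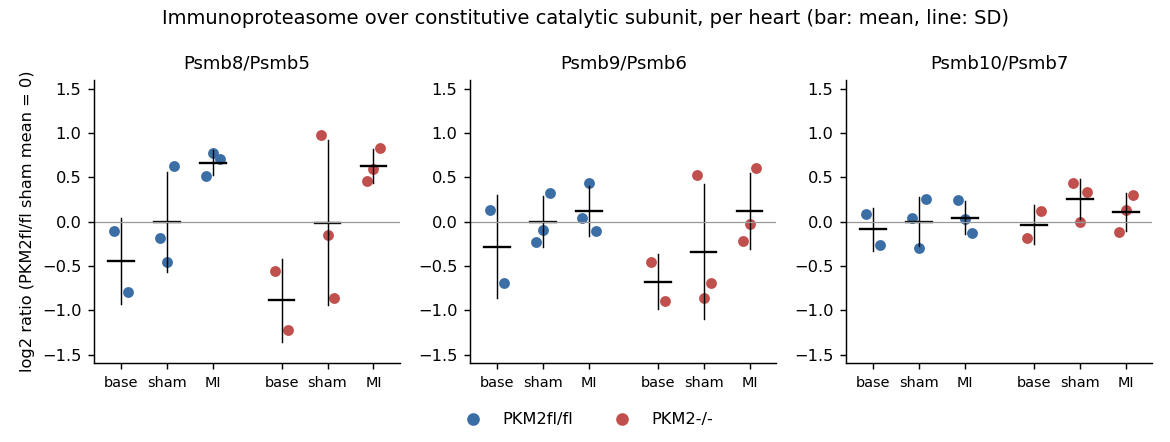
Log2 ratio of each immunoproteasome catalytic gene to the constitutive gene it replaces (y axis, mean of PKM2fl/fl sham hearts set to 0) in each heart (points) with the mean and SD, by treatment and genotype. Psmb8 over Psmb5 was at 0.46 to 0.83 in infarcted hearts and at −0.86 to 0.98 in sham hearts. Sham and infarcted hearts of each genotype overlapped in the other ratios too.

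The differences between genotypes in the response to MI were tested as an interaction, and 0 of the 42 genes were called, as were 0% of all genes (limma). At an unadjusted p under 0.05, limma gave 4 of the 42 genes and 8.28% of all genes. At its adjusted p, DESeq2 called 0 of the 42 and 0.32% of all genes it tested, and edgeR 0 of the 42 and 0%. The smallest adjusted p was that of Psmb4 (log2 difference of 0.52, standard error 0.16, 95% interval 0.18 to 0.86, limma adjusted p = 0.448). The interaction was above 0 for 37 of the 42 genes, against 49% of all genes, with a median of 0.22 against −0.0081, and relative to the median gene it stood at 0.23 under all 4 scalings. It ran from −0.23 (Psmb2) to 1.01 (Psma8), and for Psme4 it was −0.22 (limma adjusted p = 0.786).

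Compared directly after MI, 0 of the 42 genes were called between genotypes by limma, against 0.967% of all genes. At an unadjusted p under 0.05 there were 13 of 42 genes and 17% of all genes, and DESeq2 called Psma7 alone of the 42 genes, beside 5.48% of all genes it tested. The log2 difference of PKM2-/- from PKM2fl/fl hearts was above 0 for 35 of 42 genes and for 49.5% of all genes, with medians of 0.13 and −0.0035. Relative to the median gene it was 0.13 under all 4 scalings. This comparison and the interaction share the infarcted hearts, so they are not separate support.

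Psma7 had the smallest adjusted p between infarcted hearts of the 2 genotypes. It had 1176, 1084 and 1017 normalized counts in PKM2fl/fl and 1543, 1255 and 1376 in PKM2-/- hearts, with no overlap (log2 difference 0.35, standard error 0.11, 95% interval 0.12 to 0.57, limma adjusted p = 0.116). Psmd14 overlapped between the genotypes (log2 difference 0.33, limma adjusted p = 0.159) and was called without PKM2fl/fl MI replicate 3, its highest PKM2fl/fl heart, where limma called 11.1% of all genes. For Psmb7 the difference was 0.06 with a 95% interval of −0.14 to 0.27, and for Psme4 −0.28 (limma adjusted p = 0.298). Hearts of the genotypes did not overlap for 10 of the 42 genes that were higher in PKM2-/- infarcts, against 10.7% of all genes, and for 1 that was lower, Psmb2, against 8.26% of all genes.

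**Figure D5:**
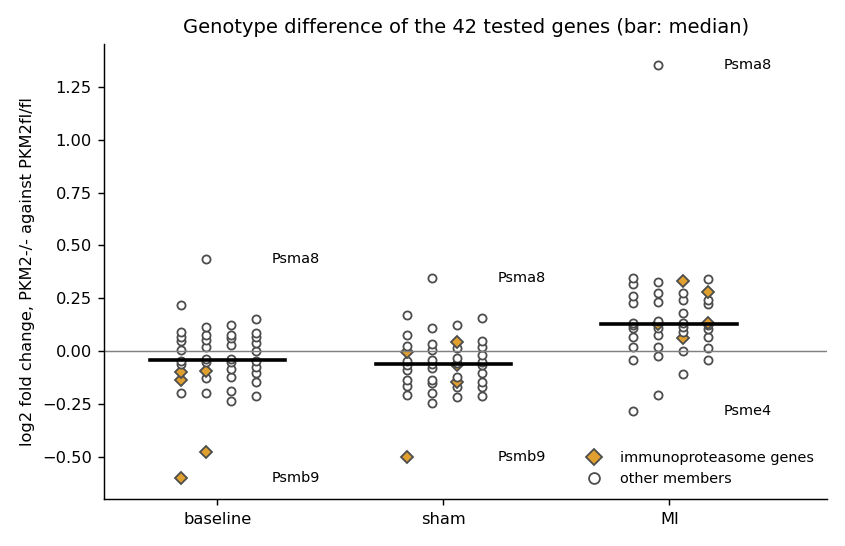
Log2 difference of PKM2-/- from PKM2fl/fl hearts (y axis) for each of the 42 tested genes (points, immunoproteasome genes as diamonds) at baseline, after sham surgery and after MI, with the median as a bar and the authors' size factors. The medians were −0.04, −0.06 and 0.13, none of the points was called by limma, and scaling to total reads moves the medians to −0.63, −0.39 and 0.49 together with those of all genes.

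The genotypes were also compared before injury. At baseline 0 of 42 genes were called by limma, against 0.00972% of all genes, and 0 of 42 passed an unadjusted p of 0.05, against 3.64% of all genes. After sham surgery 0 of 42 were called against 0.00972%, and 3 of 42 passed the unadjusted threshold against 9.95%. DESeq2 and edgeR called 0 of 42 in both comparisons. Of all genes it tested, DESeq2 called 0.0405% at baseline and 1.31% after sham surgery, and edgeR called 0.00432% and 0.00864%. The medians of −0.04 and −0.06 stood beside −0.0034 and −0.0056 for all genes. With 2 hearts in each baseline group, an exact permutation test cannot give a p below 0.333, and intervals were wide, as for Psmd14 (0.08, 95% interval −0.21 to 0.38).

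Sham surgery itself was compared with baseline. In PKM2fl/fl hearts limma called 0 of 42 genes against 0.19% of all genes, and 2 of 42 passed an unadjusted p of 0.05 against 8.81%. The log2 difference was above 0 for 37 of 42 genes and for 53.4% of all genes, with medians of 0.15 and 0.02. For the PKM2-/- genotype limma called 0 of 42 against 5.14% of all genes, 5 of 42 passed an unadjusted p of 0.05 against 18.9%, and 36 of 42 were above 0 against 52%, with medians of 0.11 and 0.01. The widest difference was that of Psmb8 in PKM2-/- hearts (1.01, standard error 0.37, limma adjusted p = 0.140), which DESeq2 called, as did limma without PKM2-/- sham replicate 3. Psmf1 had 524 and 520 normalized counts at baseline and 370, 466 and 399 after sham surgery in PKM2-/- hearts (−0.35, limma adjusted p = 0.0952), and was called without sham replicate 2. These comparisons share their sham hearts with those after MI.

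Genes that build or control the proteasome were read from lists of their own. Beside the counts of these lists and of the marker lists below, 24.8% of all genes rose and 25.3% fell after MI in PKM2fl/fl hearts. In PKM2-/- hearts 28.7% of all genes rose and 28.1% fell. Nfe2l1, which encodes NRF1, the factor that raises proteasome genes when the proteasome is impaired, had 7883, 8082 and 7471 normalized counts in PKM2fl/fl sham hearts and 4486, 4664 and 2444 after MI. Its values in PKM2-/- mice were 7429, 8942 and 7377 after sham surgery and 4330, 3486 and 3640 after MI. No infarcted heart overlapped the others, and the log2 fold change was −1.07 (limma adjusted p = 0.000219) and −1.05 (limma adjusted p = 0.000193). Of the 6 genes of its pathway, 1 rose and 3 fell in PKM2fl/fl and 1 rose and 2 fell in PKM2-/- hearts. The rise was that of Ddi2, the protease that activates NRF1 (0.31 and 0.23, limma adjusted p = 0.00785 and 0.0356). The PKM2-/- call for Ddi2 was lost without any of sham replicates 1, 2 and 3 (limma adjusted p = 0.0675, 0.0786 and 0.0621) or without MI replicate 2 (0.11) or 3 (0.105). Ngly1, the glycanase that processes it, fell in both (−0.38 and −0.37). Total reads and reads outside the ribosomal RNA loci ended the PKM2fl/fl call of Ngly1 (limma adjusted p = 0.153 and 0.156), and total reads that of Ddi2 (0.791). Among PKM2-/- hearts, total-read scaling left Nfe2l1 at −0.54 (limma adjusted p = 0.186) and moved Ngly1 to 0.14.

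Among 5 chaperones that assemble the core, 2 fell in PKM2fl/fl hearts, Psmg2 (−0.64, limma adjusted p = 0.00247) and Pomp (−0.36, limma adjusted p = 0.00588). Psmg2 also fell in PKM2-/- hearts (−0.63, limma adjusted p = 0.00243), the only one of the 5 to do so, while Pomp had −0.06 there and Psmg1 had −0.36 and −0.26 and was not called. Psmg1 was called lower without PKM2fl/fl MI replicate 1 (−0.48, limma adjusted p = 0.0487) and without PKM2-/- sham replicate 2 (−0.44, limma adjusted p = 0.0430). Of 7 further subunits and bound enzymes, 4 fell in PKM2fl/fl hearts, and 1 rose and 1 fell in PKM2-/- hearts. Beside these counts, 25.3% of all genes fell in PKM2fl/fl hearts, and 28.7% rose and 28.1% fell in PKM2-/- hearts. Ecpas, which encodes a scaffold that binds the 26S proteasome, fell in both (−0.72 and −0.81, limma adjusted p = 2.21e-05 and 4.87e-06). Sem1, a small lid subunit, and Txnl1, a thioredoxin bound to the cap, fell in PKM2fl/fl (−0.42 and −0.31) and were at −0.02 and −0.05 in PKM2-/- hearts. The call for Txnl1 was lost without PKM2fl/fl sham replicate 1 (limma adjusted p = 0.0592) or MI replicate 1 (limma adjusted p = 0.0788). By total reads Pomp, Sem1 and Txnl1 were no longer called in PKM2fl/fl hearts (limma adjusted p = 0.181, 0.135 and 0.223), nor by reads outside the ribosomal RNA loci (0.202, 0.137 and 0.296). Total reads took, in PKM2-/- hearts, Psmg2 to −0.12 (limma adjusted p = 0.775) and Ecpas to −0.30 (limma adjusted p = 0.450), and neither was called.

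Of 4 genes of ubiquitin and its activating enzymes, 1 rose and 0 fell in PKM2fl/fl and 2 rose and 0 fell in PKM2-/- hearts (limma). Of all genes, 24.8% rose and 25.3% fell in PKM2fl/fl, and 28.7% rose and 28.1% fell in PKM2-/- hearts. Uba6, an activating enzyme, rose in both (0.75 and 0.79). Of 4 shuttle receptors, which carry ubiquitinated proteins to the cap, 1 rose and 1 fell in each genotype. Ubqln4 fell in both (−0.68 and −0.79), and Ubqln1 rose in PKM2fl/fl hearts (0.22, limma adjusted p = 0.0436), a call lost in 10 alternatives. By total reads Uba6 was not called in PKM2fl/fl hearts (0.57, limma adjusted p = 0.148), nor Ubqln4 in PKM2-/- hearts (−0.28, limma adjusted p = 0.457).

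Of 9 genes of MHC class I processing and loading, 3 rose in PKM2fl/fl and 2 in PKM2-/- hearts. Of all genes, 24.8% rose and 25.3% fell in PKM2fl/fl, and 28.7% rose and 28.1% fell in PKM2-/- hearts. Pdia3 (1.42 and 1.31) and Calr (0.92 and 1.03), chaperones that fold many glycoproteins besides MHC class I, rose in both, and B2m, the light chain, rose in PKM2fl/fl hearts (0.62, limma adjusted p = 0.0239), a call lost without sham replicate 1 (0.113) or MI replicate 1 (0.0646). Of 7 tested regulators of the interferon-gamma response, 3 rose and 1 fell in PKM2fl/fl and 4 rose and 1 fell in PKM2-/- hearts. Irf8, a factor abundant in myeloid cells (1.46 and 1.62), and Jak2 (0.91 and 0.87) rose and Ifngr2 fell (−0.52 and −0.69) in both, whereas Tap1 and Nlrc5 were not called. By total reads the PKM2fl/fl calls of Calr (limma adjusted p = 0.0682), B2m (0.325) and Ifngr2 (0.0706) were lost, and in PKM2-/- hearts Ifngr2 had −0.17 (0.658) and B2m was called higher (0.83, limma adjusted p = 0.0306).

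Markers of the cell types of the ventricle moved with MI in the same hearts. Of 8 cardiomyocyte markers, 7 fell in PKM2fl/fl and 8 in PKM2-/- hearts, with medians of −1.57 and −1.88. Their summed normalized counts were 825318 to 972038 in PKM2fl/fl sham hearts and 403578, 375536 and 174341 in MI replicates 1, 2 and 3, and 776465 to 937271 and 178917 to 263909 in PKM2-/- hearts. All 9 myeloid markers rose in both, with medians of 1.76 and 1.97, and their sums went from 5765 to 11209 to a range of 22822 to 40391 in PKM2fl/fl and from 7788 to 9590 to a range of 31272 to 36440 in PKM2-/- hearts. Of 7 fibroblast markers, 5 rose and 1 fell in each genotype. Endothelial markers gave 2 higher and 1 lower of 5 in PKM2fl/fl and 1 higher and 2 lower in PKM2-/- hearts, erythroid markers 0 of 5 in both, neutrophil markers 1 of 3 tested higher in both, and lymphocyte markers 2 of 3 and 1 of 3 higher. No marker in these lists was at 0 in all hearts, and their part in the proteasome differences was not tested. PKM2fl/fl MI replicate 3 had the lowest cardiomyocyte sum and the highest myeloid sum of all hearts, and without it Psma7, Psmb5, Psmb10, Psmd7 and Psme2 were no longer called in PKM2fl/fl hearts and Psmc6 was (−0.33, limma adjusted p = 0.0112).

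Several members share sequence with other loci. At 95% identity or more, the transcripts of Psma3, Psma4, Psma5, Psmb3, Psmd2, Psmd11 and Psme2 matched 1 to 3 other places in GRCm39. The longest matches were those of Psmb3 (96.5% of the transcript at 97.5% identity) and Psmd2 (96.4% at 96.4%). A stretch of the Psmb5 transcript matched a repeat, at 300 other places, the best over 52.85% of the transcript at 99.11% identity. In GENCODE M39, exons of protein-coding genes on the other strand also overlap Psma4 (AY074887, 121 bases), Psmb7 (Nek6, 253 bases), Psmd13 (Cox8b, 450 bases, and Sirt3, 329), Psmf1 (Tmem74b, 352), Psme2 (Rnf31, 102) and Psmc5 (Smarcd2, 57). The sources used here give neither the gene models used for counting nor how reads with several matches were counted. Values of these genes are uncertain to that extent.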

How the data were processed

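Total RNA of 16 left ventricles, depleted of ribosomal RNA, was sequenced in paired ends with a kit that does not mark strand. Per the labels and the study's methods, the authors used PRINSEQ for trimming, HISAT2 for alignment (mm10), featureCounts for gene counts and DESeq2 for normalization (versions not given in the sources used here). The deposited signal is the read count of a gene divided by its library's size factor. Whole reads were recovered from it, with 100% of values whole in every library at a tolerance of 0.02 reads. The deposited table also holds the authors' fold changes, standard errors, test statistics and p-values for the baseline comparison, which were not used.

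Values were taken as log2(value + 1), genes averaging 10 or more entered the fit, and means of the 6 groups were fitted over all 16 libraries with limma 3.58.1 (trend) in R 4.3.3, so fold changes of low genes are understated. A gene was called at a Benjamini-Hochberg adjusted p under 0.05 over all 20576 genes, and 2-fold differences were counted apart. Alternatives were other scalings (edgeR TMM, total reads, reads outside ribosomal RNA loci, the last chosen after seeing the data), DESeq2 1.42.0 and edgeR 4.0.16 on the recovered reads, no filter, a pseudocount of 0.1, a replicate block, fits of the compared groups alone and the removal of each heart. The fitting steps were tested on simulated data with few genes changed, the same dispersion for every gene and known size factors. That test therefore does not cover the choice of scaling or the wide changes after MI.

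The named genes were the immunoproteasome, constitutive catalytic, activator and inhibitor genes with Psmd14, the gene with the smallest p after MI in each genotype for each of the alpha ring, non-catalytic beta, ATPase, lid, other base and base chaperone roles, up to 5 members called in each other comparison (there were 0), the members that missed the filter, Pkm, and up to 3 genes of each related list by the smallest PKM2fl/fl p. Some genes of the related lists are not reported here and are left out of the lists' counts. Any other gene was picked with its values in view. The members and lists were chosen with earlier results of these data known. Each library came from its own mouse, and the depth of 20623769 to 71855101 reads limits only the lowest genes. Promoter windows and mm10 positions came from RefSeq on GRCm38.p6, and copies were found with BLAST 2.17.0 on GRCm39 with GENCODE M39.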

Additional observations from a re-analysis of the deposited data

Results flagged for a closer look

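For Psma5, an alpha ring gene, the genotypes differed in opposite directions at baseline and after MI. At baseline it had 622 and 606 normalized counts in PKM2fl/fl and 580 and 493 in PKM2-/- hearts, all lower in PKM2-/- (log2 difference −0.20, limma adjusted p = 1). After MI it had 651, 625 and 722 in PKM2fl/fl and 778, 780 and 769 in PKM2-/- hearts, all higher in PKM2-/- (log2 difference 0.22, limma adjusted p = 0.267). The gap between these differences was 0.421 on the log2 scale and was not tested. Neither was called.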

How the results depend on the processing

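After MI in PKM2fl/fl hearts, 20 of 42 genes were called with the authors' size factors, 4 when scaled to total reads and 9 when scaled to reads outside ribosomal RNA loci, where 29.2% and 45% of all genes were called. In PKM2-/- hearts the counts were 11, 9 (all higher) and 18 (17 higher), and the shares of all genes under the other scalings 44.3% and 57.4%. DESeq2 called 1 gene (Psma7) between genotypes after MI and 1 gene (Psmb8) between PKM2-/- sham and baseline hearts, where limma called 0, beside 5.48% and 6.62% of all genes it tested. With each heart left out in turn, the MI counts ran from 15 to 19 in PKM2fl/fl and from 9 to 15 in PKM2-/- hearts. In these fits, 43.3% to 49.6% and 51% to 53.6% of all genes were called. The genotype count after MI ran from 0 to 1, beside 0.0535% to 11.1% of all genes. The PKM2-/- sham count against baseline also ran from 0 to 1, beside 1.53% to 4.75% of all genes. The other counts stayed at 0. Beside them, 0% to 2.37% of all genes were called for the interaction and 0.034% to 1.37% for PKM2fl/fl sham against baseline. Between genotypes, the shares were 0% to 0.194% at baseline and 0% to 0.437% after sham surgery.

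Replicate numbers name different mice, and deviations of same-numbered hearts correlated with r from −0.196 to 0.126 over 36 pairs, 1 of them over 0.1. With the replicate number as a block, 18 genes (42.9%) were called in PKM2fl/fl and 12 (28.6%) in PKM2-/- hearts. Of all genes, 48.9% and 55.5% were called in the same fits.

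The sign turned in PKM2fl/fl hearts for Psma5 (−0.17 by total reads and −0.0036 by edgeR), Psmb2 (−0.079) and Psmc4 (−0.050) by total reads, and by reads outside ribosomal RNA loci for 7 members that were not called, Psmf1 (0.021), Psma1, Psma3, Psmd1, Psmd9, Psmd11 and Psmd13, at 0.0087 to 0.090. In PKM2-/- hearts 23 and 18 members turned by total reads and by reads outside ribosomal RNA loci. Values under the 2 scalings were 0.23 and 0.065 for Psmc2, 0.18 and 0.013 for Psmd7, 0.46 and 0.30 for Psma6, 0.38 and 0.22 for Psmb2, 0.40 and 0.24 for Psmb5, 0.31 and 0.15 for Psmb6, 0.28 and 0.12 for Psmb7, 0.50 and 0.34 for Psme3, 0.35 and 0.19 for Psmf1, 0.46 and 0.29 for Pomp, 0.25 and 0.091 for Psmg1, 0.49 and 0.33 for Sem1 and 0.46 and 0.30 for Txnl1. The same held for Psma1, Psmb1, Psmc1, Psmc6, Psmd1, Psmd2, Psmd3, Psmd6 and Psmd11, which were not called in PKM2-/- hearts. Total reads alone turned Psmb10 (0.14), Psmc3 (0.16), Psmc5 (0.15), Psmd4 (0.15), Psmd12 (0.10) and Ngly1 (0.14) there. With each heart left out, the sign of Psma5 turned in PKM2fl/fl hearts (−0.057 to 0.048), and in PKM2-/- hearts that of Psma6 (−0.14 to 0.043), Psmb2 (−0.25 to 0.0094), Psmb4 (−0.11 to 0.079), Psmb9 (−0.096 to 0.73), Psme2 (−0.11 to 0.22), Psme3 (−0.088 to 0.051) and Sem1 (−0.076 to 0.051). The scaling itself shifts every gene by the same amount within a library. Groups of 2 or 3 hearts limit what can be called between genotypes.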
